A study of Mus musculus with 3 samples.

Results

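Epithelial cells of the epididymis were sought in the aspirate of a knockout cauda, and 218 of the 3525 barcodes that passed the quality limits in that library, 6.18% (95% interval 5.41 to 7.03), met the criteria. A barcode qualified with at least 500 UMIs (unique molecular identifiers, each tagging a captured transcript molecule), at least 200 genes and at most 20% of UMIs from mitochondrially encoded genes. It also had to show at least 3 of 9 genes, namely Sorbs2, Ank3, Akr1c19, Ldhd, Atp2b4, Epcam, Krt8, Krt18 and Cdh1, with at most 2 UMIs of the macrophage genes Adgre1, Csf1r, Timd4 and Vsig4 together, at most 2 of the B cell genes Cd79a and Ms4a1, and at most 1 of the T cell genes Cd3d, Cd3e and Trac. Over all 3 mouse libraries 17371 barcodes passed the quality limits. These barcodes were chosen on their own readout, so the values of the 9 genes are a description and no test was run on any value.

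The KO cauda library was labelled as epididymal cells of the line goGermline and was taken by aspirating the cauda epididymis of a Tsc22d3 knockout through the skin. The chimera cauda library was aspirated in the same way from a Tsc22d3 knockout chimera that carried cells grown from mouse induced pluripotent stem cells. Its cell type label reads spermatids and spermatozoa, and its line label Pax7-nGFP iPS x goGermline. The KO testis library held testicular cells of an adult Tsc22d3 knockout, also goGermline. All 3 groups carry the knockout in the host, no wild-type animal was included, and each group is 1 library.

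The epididymis is a single coiled tube in which sperm mature and, in its tail, the cauda, are stored. Its lining consists mainly of principal cells, which secrete proteins into the lumen and absorb fluid, with basal cells beneath them and proton-secreting clear cells among them. The tube arises from the Wolffian duct and depends on androgens, and its secreted defensins, protease inhibitors, lipocalins and cysteine-rich proteins differ from segment to segment.

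The cauda libraries share barcodes. All 3937 barcodes of the KO cauda file stand in the chimera's list of 301167 barcodes, and 58.8% of the chimera's 5395856 UMIs fall on them. On the 218 epithelial barcodes the chimera library holds 4 to 717 UMIs (median 24), which is 0.278% to 2.42% of the UMIs that the same barcodes hold in the KO library. Crisp1 reached 19125 CPM (UMIs of a gene scaled to the class total) in those chimera UMIs and 22534 CPM in the KO library, and Spink8 6803 against 6068 CPM. The sperm genes Prm2, Smcp and Odf1 had 4, 4 and 8 UMIs on these barcodes in the chimera library and 0 in the KO library. None of the 218 held more chimera than KO UMIs, while 109 of 3014 leukocyte-gated barcodes did. Without the 110 leukocyte-gated barcodes that reach 500 UMIs in the chimera library, the number of genes higher in the epithelial class given below remained 799. Of the KO cauda barcodes, 14 also occur in the testis list, 2 of them epithelial. Values below come from the KO library, and each of the 218 barcodes shares its sequence with the chimera list.

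The epithelial barcodes held 826847 UMIs, from 504 to 85830 per barcode with a median of 2461.5, over a median of 1493 genes. The mitochondrial share ranged from 0.135% to 19.9% with a median of 3.14%. The deepest barcode held 10.4% of all these UMIs and the second, with 39825, a further 4.82%. The comparison class within the library was the 3014 barcodes over exactly 1 of the leukocyte limits (1023 macrophage, 1888 B and 103 T), with a median of 10380.5 UMIs. These cells should lack epididymal secretory transcripts, so what they hold of them was taken as the background. They averaged 12157 UMIs against 3793 per epithelial barcode, so a transcript present in equal number per barcode stands 3.21-fold higher in the epithelial class in CPM, and UMIs per barcode are therefore given beside CPM. Tsc22d3, the gene knocked out in the host, had 12.1 CPM (5.80 to 22.2) in the epithelial barcodes, from 10 UMIs, and 11.3 CPM in the leukocyte-gated ones. The position of the deletion is not given in the sources used here, so these 3′ counts do not check it. All intervals are 95% intervals that cover counting error only.

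The 9 selecting genes were unevenly present. Akr1c19, of the aldo-keto reductase family, was seen in 190 of the 218 barcodes and the D-lactate dehydrogenase gene Ldhd in 197. The actin-associated adaptor gene Sorbs2 and the calcium pump gene Atp2b4 were each seen in 168, and the ankyrin gene Ank3 in 161. The textbook epithelial genes were seen in fewer, with Epcam and Krt18 in 80 barcodes each, Krt8 in 69 and Cdh1, which encodes E-cadherin, in 33. Levels were 1322 CPM for Akr1c19, 1254 for Ldhd, 945 for Sorbs2, 914 for Atp2b4, 745 for Ank3, 299 for Krt18, 279 for Krt8, 244 for Epcam and 55.6 for Cdh1. The 29 barcodes just inside the threshold, with 3 of the genes, had a median of 1717 UMIs and a median of 5.53% of UMIs from secretion genes. The 43 just outside it, with 2, had a median of 1147 UMIs and 3.13%. Depth bears on the rule: with every barcode thinned to 500 UMIs, 105 of the 218 (48.2%) still showed 3 or more of the genes. Before thinning, 12 macrophage-gated, 33 B-gated and 2 T-gated barcodes also showed 3 or more, and after it 1, 1 and 0. The 218 were chosen on these genes, so this contrast follows from the selection. Among 412 barcodes that failed the quality limits, 128 showed 3 or more of the 9 genes.

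Genes outside the rule bore on the epithelial label. Of 14 measured regulators of epithelial identity (more than 3 UMIs in either class), all 14 stood at least 4-fold higher in the epithelial than in the leukocyte-gated barcodes in CPM with the interval above 1, where 30.1% of 13831 genes did so. In UMIs per barcode 12 of 14 did, against 14.4% of all genes. Their UMIs reached 199 of the 218 barcodes. Grhl2, a transcription factor of epithelial barrier genes, stood at 150 CPM against 0.491, and Esrp1, an epithelial splicing factor, at 157 against 0.655 CPM. Of 21 measured junction genes outside the rule, 18 were higher in CPM and 13 per barcode, with Cldn3 (claudin 3) at 296 CPM and Cldn7 at 139. Spermatid genes had 0 UMIs in the epithelial barcodes, for all 8 listed. These values do not go against the label for most of the class, but 4 barcodes described further below carried mesothelial genes.

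Over all genes the epithelial barcodes and the leukocyte-gated ones differed widely. Of 2450 genes that reached 100 CPM in either class, 799 (32.6%) stood at least 4-fold higher in CPM in the epithelial barcodes and 326 (13.3%) lower. In UMIs per barcode the split turned round, with 344 higher (14.0%) and 779 lower (31.8%). The median log2 ratio in CPM of all 13831 genes with a fold was 1.07, against which the lists below, without the selecting genes, can be read. These CPM ratios carry the 3.21-fold depth difference given above, so a low positive value need not mean more UMIs per barcode. The median log2 ratio was 7.60 for duct patterning factors, 6.55 for epithelial regulators, 5.62 for keratins, 5.61 for junctions and 5.31 for secretion genes. Aldo-keto, lactate and aldehyde enzymes stood at 4.29, defence genes at 3.19, clear or narrow cell genes at 2.97, the scaffold at 2.64, transport at 2.20, the hormone list at 2.08 and antioxidant enzymes at 1.49. Early stress and cell cycle genes lay below 0, at -0.94 and -0.89. Lists for other cell types were high too, with mesothelium at 8.31, seminal vesicle and prostate at 7.41, basal cells at 6.61, fibroblasts at 6.27, Sertoli cells at 5.69, skin keratinocytes at 5.61 and urothelium at 4.15, on few genes and, as described below, often on few barcodes.

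The 218 barcodes fell into 2 clusters that differed in the makeup of their RNA. Cluster 1 held 172 barcodes (78.9%, 72.9 to 84.1), in which ribosomal protein genes took a median of 2.24% of UMIs (0.817 to 9.59). Gene models of the annotation class TEC, whose transcripts still await experimental proof, took a median of 3.01%. Cluster 2 held 46, of which 4 carried at least 3 of 7 mesothelium genes (Krt19 not counted). The other 42 carried at most 2 of these genes and are called without mesothelial genes below. In those 42, ribosomal protein genes took a median of 25.1% (6.77 to 36.1) and TEC models 0.0414%. Leukocyte-gated barcodes had medians of 32.8% and 0.307%. Below 4% ribosomal share all 153 barcodes belonged to cluster 1, while the next 22 barcodes, from 4% to 10%, held 19 of cluster 1, and the 6 from 10% to 15% and the 37 from 15% upward were all of cluster 2. Among the 10 leading genes of cluster 1, 4 were TEC models, with Timp4 and Prodh among the others. Those of cluster 2 included several that came mostly from its 4 barcodes with mesothelial genes, which held 59 of the 61 Krt7 UMIs, 252 of the 277 C3 UMIs and 124 of the 126 Upk3b UMIs. Igfbp5 had 226 UMIs in cluster 2, of which 36 lay in 1 of the other 42 barcodes. Krt4 had 66 UMIs in 3 of those 42 and 0 in the 4. Both clusters were left unnamed.

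**Figure D1:**
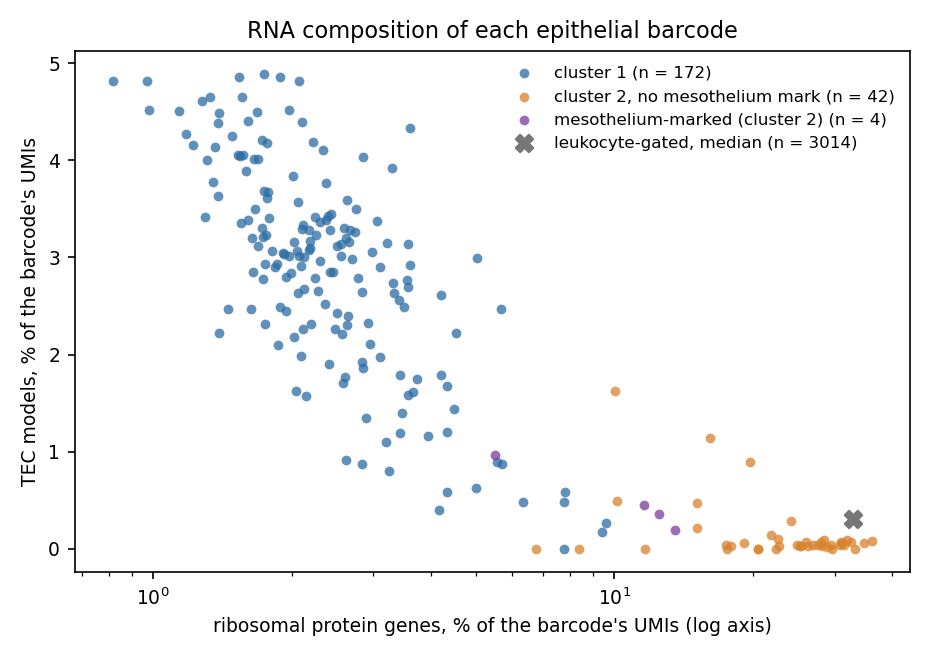
RNA makeup of each epithelial barcode, with the share of UMIs from ribosomal protein genes (%, log axis) against the share from TEC gene models (%). Each point is a barcode coloured by cluster and the cross is the leukocyte-gated median, and cluster 1 lies at low ribosomal and high TEC shares.

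Secretory transcripts were among the most abundant ones, with 6.57% of UMIs beside 10.2% from ribosomal protein genes. The question was which barcodes held more of the secretory transcripts than the leukocyte-gated barcodes did. Crisp1 (ENSMUSG00000025431, chromosome 17, 40293758 to 40319207 on GRCm38, minus strand) encodes a cysteine-rich protein that coats sperm. With mitochondrially encoded and ribosomal protein genes left out, it had the most UMIs of any gene. It was seen in all 218 barcodes, but also in 3013 of the 3014 leukocyte-gated ones. Promoters are shown for the 3 secretion genes with most UMIs among those that have an entry in the RefSeq table. Each is the 250 bases before the annotated start, 5′ to 3′ on the gene's strand, from RefSeq on GRCm38.p6: Crisp1 at chr17:40319208-40319457 (minus strand), Gpx3 at chr11:54902604-54902853 (plus strand) and Wfdc15b at chr2:164221664-164221913 (minus strand). Capitals mark AGAACA or its complement TGTTCT, the hexamer that the glucocorticoid receptor binds as one arm of its site.
Crisp1: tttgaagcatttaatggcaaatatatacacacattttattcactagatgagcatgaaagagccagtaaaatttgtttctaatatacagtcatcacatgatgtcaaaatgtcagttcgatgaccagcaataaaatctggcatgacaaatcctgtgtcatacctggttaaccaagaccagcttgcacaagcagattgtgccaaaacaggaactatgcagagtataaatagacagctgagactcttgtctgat
Gpx3: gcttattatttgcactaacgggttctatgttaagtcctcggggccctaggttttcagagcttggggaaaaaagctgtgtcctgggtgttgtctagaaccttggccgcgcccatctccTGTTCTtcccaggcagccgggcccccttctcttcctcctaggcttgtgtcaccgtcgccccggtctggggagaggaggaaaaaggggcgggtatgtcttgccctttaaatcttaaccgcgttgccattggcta
Wfdc15b: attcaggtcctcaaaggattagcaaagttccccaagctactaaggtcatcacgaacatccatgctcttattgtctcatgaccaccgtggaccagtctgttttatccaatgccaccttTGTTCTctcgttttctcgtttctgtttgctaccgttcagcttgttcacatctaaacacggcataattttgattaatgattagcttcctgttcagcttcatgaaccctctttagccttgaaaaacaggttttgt
The hexamer occurs once in the Gpx3 and once in the Wfdc15b window, at -133 from the start in each, and not in the Crisp1 window. The window of Ptgds, next in UMIs among the genes with an entry, held 0 and is not shown. Of 32536 promoter windows of this length, 16.0% hold it on either strand. Of 16 secretion genes with more than 3 UMIs, 10 had an entry, 2 of those held the hexamer and 0 the full site of both arms. A match describes letters only and shows no binding.

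In cluster 1 the abundant secretory transcripts stood close to the background per barcode. The 27-gene secretion list had 13 to 369 UMIs per barcode there (median 54), against 1 to 188 (median 43) in leukocyte-gated barcodes, of which the macrophage-gated had a median of 62. Crisp1 had 6 to 140 UMIs per barcode in cluster 1 (median 27.5) and 0 to 75 (median 15) in leukocyte-gated ones, a mean ratio of 2.02 (1.96 to 2.07). The ranges overlapped over most of their length. Cd52, which encodes a glycopeptide of maturing sperm that lymphocytes also make, was lower in cluster 1, with a mean of 7.59 UMIs against 14.6. Spink8, a protease inhibitor gene of the Kazal type, had means of 2.85 against 1.23, Gpx3, an extracellular glutathione peroxidase gene, 2.62 against 1.43, and Wfdc15b, a whey acidic protein-type inhibitor gene, 2.13 against 0.966. The beta-defensin gene Defb28 had 0.738 against 0.330. Apart from Cd52, these 5 genes lay between 1.83-fold and 2.32-fold.

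Other secretion genes in cluster 1 stood further above that background. Adam7 (chromosome 14, 68497336 to 68533741), a membrane protein gene of the epididymis whose product is passed to sperm, had 0 to 18 UMIs per barcode (median 2) against 0 to 5 (median 0), a mean ratio of 19.4 (16.9 to 22.2). Spink11 had a mean of 0.762 UMIs against 0.0212 (35.9-fold, 26.4 to 49.2). Ptgds, a lipocalin-type prostaglandin D synthase gene, had 3.97 against 0.586 (6.76-fold, 6.18 to 7.39). Spink10 was 5.52-fold and Serpina1f, of the serpin inhibitors, 5.36-fold higher. Wfdc10 and Cuzd1 lay between, at 4.04-fold and 3.44-fold. So the order of the genes by level and their order above the background differed, with Crisp1 first in level and near the end in ratio.

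The same counts can be read as proportions of the transcripts to each other. Leukocyte-gated barcodes held 11.3 Crisp1 UMIs for each Gpx3 UMI, 16.8 for each Wfdc15b UMI and 49.1 for each Defb28 UMI. Cluster 1 held 12.5, 15.3 and 44.2, and for these 3 of 11 genes the intervals overlapped. For Spink8 they did not, at 11.5 (10.5 to 12.6) in cluster 1 and 13.2 (12.7 to 13.6) in leukocyte-gated barcodes, nor for Cd52, at 4.30 against 1.11. For Adam7 the proportion was 12.7 in cluster 1 and 121 in leukocyte-gated barcodes, and for Ptgds 8.24 against 27.6. The 42 barcodes of cluster 2 without mesothelial genes held 4.65, 5.81 and 6.17 Crisp1 UMIs per UMI of Gpx3, Wfdc15b and Defb28.

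**Figure D2:**
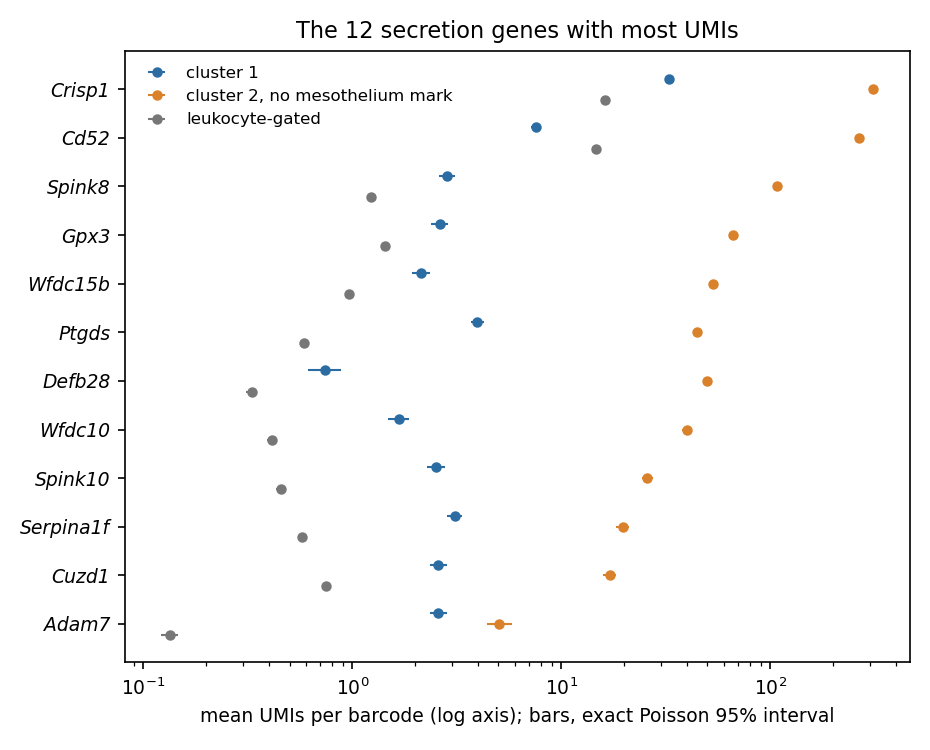
Mean UMIs per barcode (log axis) of the 12 secretion genes with most UMIs, in cluster 1, in cluster 2 without mesothelial genes and in leukocyte-gated barcodes, with exact Poisson 95% intervals as bars. Crisp1 in cluster 1 (32.7) stands near the leukocyte-gated value (16.2), Cd52 below it, and Adam7 (2.58 against 0.133) far above it.

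Those 42 cluster 2 barcodes held most of the secretory RNA. The secretion list had 23 to 15792 UMIs per barcode (median 244.5) and took 13.1% of their UMIs. Crisp1 had 8 to 7208 UMIs per barcode (median 41.5), Cd52 3 to 2617 (median 82.5), Spink8 0 to 2854 (median 21), Gpx3 2 to 681 (median 24.5) and Wfdc15b 1 to 407 (median 25). Their low ends fell within the leukocyte-gated ranges, and their medians for Cd52, Spink8, Gpx3 and Wfdc15b exceeded those of cluster 1 by more than 10-fold. Defb2, another beta-defensin gene, stood at 2626 CPM in these barcodes and 106 CPM in cluster 1. Adam7 was lower by median, with 0.5 UMIs in these barcodes and 2 in cluster 1, though higher by mean, at 5.05 against 2.58. Spink11 was lower by mean, at 0.452 UMIs per barcode against 0.762 in cluster 1.

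A pair of barcodes weighed heavily in these sums. The deepest barcode held 29.1% of the secretion-list UMIs of all 218, and together with the second 45.0%, and both belong to the 42. Their mitochondrial shares were 10.9% and 19.9%. The deepest held 56.9% of all Spink8 and 38.7% of all Crisp1 UMIs. The secretion share of the 218 was 6.57% with them and 4.26% without, and without them the remaining 40 cluster 2 barcodes still stood at 9.16%, with a median of 7.93%. Crisp1 stood at 13061 CPM and Spink8 at 2270 CPM when they were left out.

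**Figure D3:**
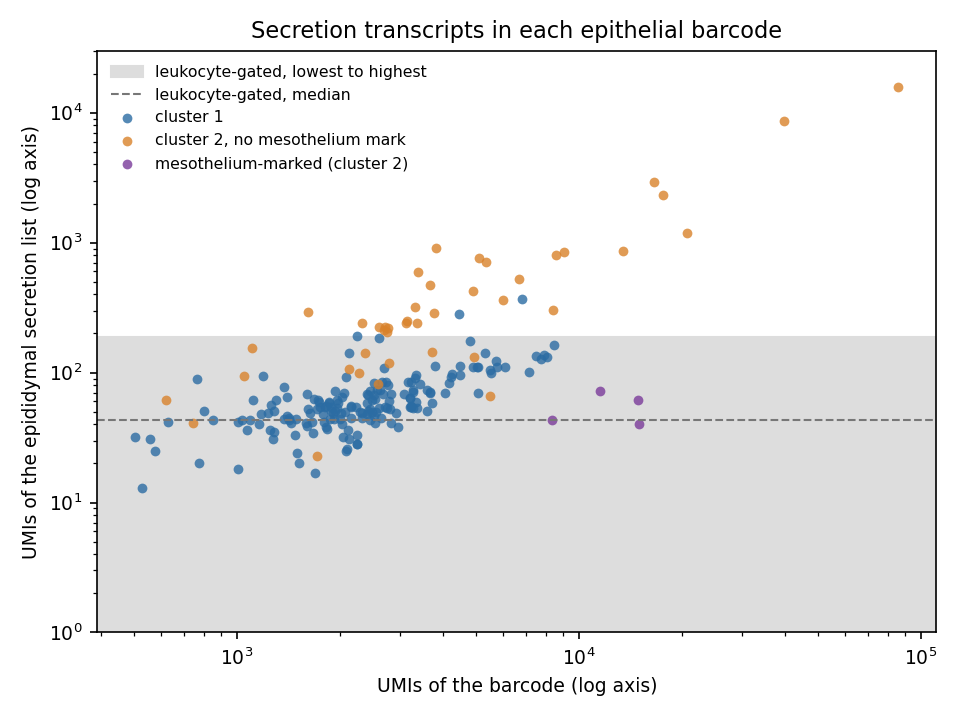
UMIs of the secretion list against all UMIs of each of the 218 epithelial barcodes (both log axes), coloured by cluster, with the leukocyte-gated range of 1 to 188 shaded and its median of 43 dashed. Most cluster 1 barcodes lie within the shaded range, and the deepest barcodes of cluster 2 lie far above it.

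Within the secretion list 17 genes were measured, 14 of them at least 4-fold higher per barcode over all 218 and 1, Npc2, lower (1.19 against 9.72 UMIs per barcode), where 14.4% and 22.1% of all genes were. Npc2 encodes a cholesterol-binding protein that macrophages also make. Genes known mainly from more proximal segments were at or near 0: Crisp4, Lcn5, Lcn8, Lcn9, Cst8, Cst11 and Cst12 had 0 UMIs, which allows up to 3.63 CPM at 3 UMIs, Gpx5 had 2 and Rnase10 1. The clusterin gene Clu had 541 CPM and Wfdc2 9.68 CPM.

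Transcription factors of the embryonic duct were seen in many of the barcodes and hardly in leukocyte-gated ones. Of 15 listed patterning factors 6 were measured. All 6 were at least 4-fold higher in CPM and per barcode, beside 30.1% and 14.4% of all genes. Pax2 (ENSMUSG00000004231, chromosome 19, 44756045 to 44837871), a paired-box factor of the Wolffian duct, was seen in 153 barcodes, at 618 CPM (566 to 674) against 1.96 CPM. It had 0 to 11 UMIs per barcode in cluster 1 (median 2), 0 to 26 (median 0) in cluster 2 without mesothelial genes and 0 to 10 (median 0) in leukocyte-gated barcodes. Pax8, its relative, had 225 CPM against 0.382 in 107 barcodes, and Emx2, a homeobox factor of the urogenital tract, 233 against 1.34 in 96. Hoxb7 stood at 150 against 7.45 CPM, and Hoxd9 at 49.6 CPM. Lhx1, Hoxa13, Hoxd11, Hoxd13 and Hoxc10 had 0 UMIs.

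With every barcode thinned to 500 UMIs, Pax2 was seen in 35.5% of cluster 1 and 2.38% of cluster 2 barcodes without mesothelial genes, against 0.0664% of leukocyte-gated ones. The median depths before thinning were 2241, 3375.5 and 10380.5 UMIs. Hoxb7 went the other way, with 4.65% in cluster 1 and 23.8% in cluster 2. The T-box factor gene Tbx3 was seen in 28.5% and 9.52%, and Tfap2b in 15.7% and 2.38%. Tbx3 and Tfap2b were chosen after their values were seen.

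**Figure D4:**
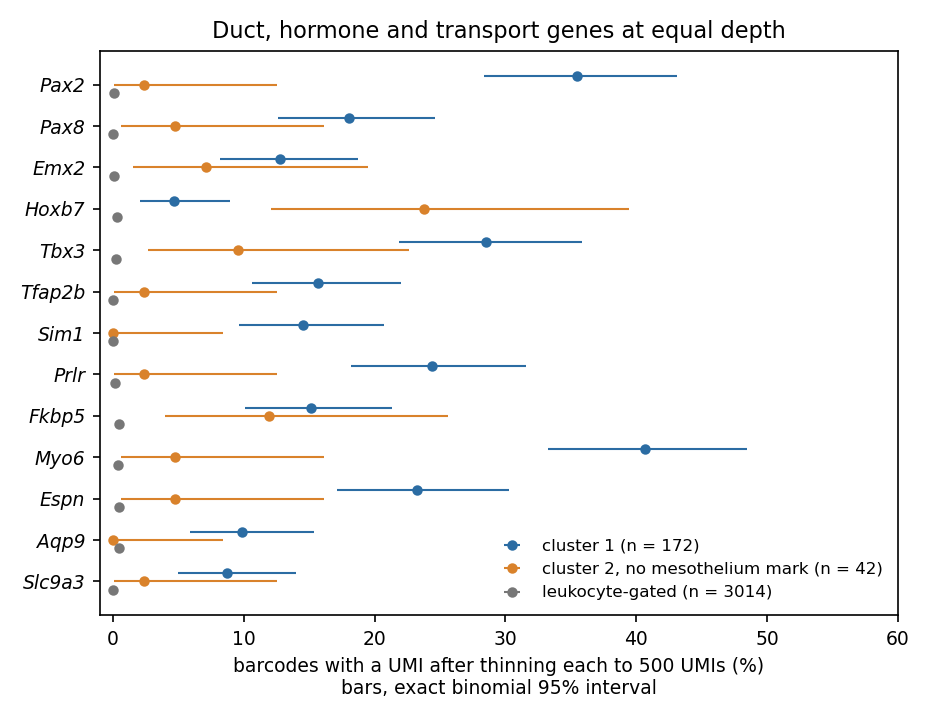
Share of barcodes with at least 1 UMI of each gene after thinning every barcode to 500 UMIs (%), in cluster 1 (n = 172), in cluster 2 without mesothelial genes (n = 42) and in leukocyte-gated barcodes (n = 3014), with exact binomial 95% intervals as bars. Pax2, Prlr and Myo6 are seen in more cluster 1 barcodes, and Hoxb7 in more of cluster 2.

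Hormone receptors and steroid enzymes were read next. Of 13 measured genes of this list, 5 were at least 4-fold higher per barcode and 3 lower, beside 14.4% and 22.1% of all genes, so the count of lower genes is near the background. The prolactin receptor gene Prlr had 506 CPM against 2.21, in 129 barcodes. Fkbp5, a chaperone gene induced by glucocorticoids and androgens, had 282 against 8.27 CPM, in 112. The glucocorticoid receptor gene Nr3c1 was lower, at 16.9 against 92.3 CPM, with 14 UMIs in all. The insulin receptor gene Insr was 1.77-fold higher per barcode (1.46 to 2.13). At 500 UMIs Prlr was seen in 24.4% of cluster 1 and 2.38% of cluster 2 barcodes without mesothelial genes.

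Transport and scaffold genes of the apical side were present in part. Of 12 measured ion and water transport genes outside the rule, 5 were at least 4-fold higher per barcode and 2 lower, beside 14.4% and 22.1% of all genes. The sodium-proton exchanger gene Slc9a3 stood at 137 against 0.600 CPM, the aquaporin gene Aqp9 at 138 against 10.3 (4.19-fold per barcode) and the anion exchanger gene Slc26a3 at 71.4 against 0.819. Atp1b3, which encodes a sodium pump subunit, was lower, at 0.119 against 1.59 UMIs per barcode. Of 11 measured actin and spectrin scaffold genes outside the rule, 5 were higher per barcode and 1, Sptbn1, lower, beside the same shares of all genes. Myo6, an unconventional myosin gene, had 597 against 7.20 CPM in 158 barcodes, Espn, an actin-bundling protein gene of stereocilia, 379 against 10.4, and Lima1 317 against 11.4. Ezr, an anchor of apical membrane to actin, had 1.06 UMIs per barcode against 1.97.

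Markers of the other epididymal cell types were few. Of 7 measured clear or narrow cell genes, 2 were at least 4-fold higher per barcode, beside 14.4% of all genes, a count too small to set them apart. They were the proton pump subunit gene Atp6v1c2, at 71.4 CPM in 46 barcodes, and the carbonic anhydrase gene Car12, at 47.2 CPM in 27. Foxi1, the defining factor of clear cells, had 2 UMIs, and Slc4a9 and Slc26a4 had 0. Among 8 measured basal cell genes, 6 were higher, beside 14.4% of all genes, and 1, Itga6, lower, but few barcodes carried them. The 4 barcodes with mesothelial genes held all 25 Krt17 UMIs, 3 of the 4 Krt14 UMIs and 8 of the 11 Cldn1 UMIs, and without them the list stood at 100.4 CPM against 140 CPM with them. Trp63, the basal cell factor, had 46.0 CPM in 9 barcodes, Krt5 6.05 CPM in 2 and Krt14 4.84 CPM in 3.

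Enzyme and defence genes went with cluster 2. Leaving out the selecting genes, the summed level of 10 aldo-keto, lactate and aldehyde enzymes was 5.96-fold higher (5.19 to 6.86) in the 42 barcodes than in cluster 1, and 5.55-fold without the 2 deepest. With the selecting genes Akr1c19 and Ldhd included it turned to 0.851-fold. Ldhb stood at 1260 against 97.2 CPM and Aldh1a1, which makes retinoic acid, at 703 against 70.7, while Akr1b7 had 83.4% of its UMIs in the deepest barcode. The antioxidant list was 7.05-fold higher (6.62 to 7.51), with the glutathione transferase genes Gstm2 at 2065 against 340 CPM and Gstm1 at 1596 against 150. Against leukocyte-gated barcodes, 7 of 16 antioxidant genes were higher per barcode and 3 lower, beside 14.4% and 22.1% of all genes, the lower ones including Txn1 at 1.28 against 7.74 UMIs. Of 13 defence genes 4 were higher and 4 lower, beside the same shares, with Defb2 at 4.13 against 0.0992 UMIs per barcode and the protease inhibitor gene Slpi at 1.51 against 80.3. S100a8, a calcium-binding protein gene of neutrophils and stressed epithelia chosen after its values were seen, stood at 3991 CPM in the 42 barcodes and 117 CPM in cluster 1.

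Several lists stood lower in the 42 barcodes than in cluster 1. The duct factors were at 0.402-fold (0.347 to 0.464), the hormone list at 0.292-fold (0.245 to 0.345), ion and water transport at 0.494-fold, and the scaffold list at 0.275-fold. Epithelial regulators, at 0.763-fold, and junction genes, at 0.835-fold, differed less. Keratins outside the rule were 5.31-fold higher and 3.46-fold without the 2 deepest. The leukocyte free-RNA list was at 0.245-fold. Of the lists for other tissues, mesothelium genes were at 6.32-fold in these 42 (3.79-fold without the 2 deepest). Of the 7 mesothelium genes used to set the 4 barcodes apart, the 42 held 2 UMIs, in 1 barcode. The list, which adds Krt19, had 163 UMIs there. Seminal vesicle and prostate genes were at 5.94-fold, and at 1.85-fold (1.01 to 3.38) without the 2 deepest. Sertoli genes were at 5.06-fold (4.04-fold without the 2 deepest), with 319 of 323 UMIs from Clu, also a secretion-list gene. Urothelium, skin keratinocyte and smooth muscle genes were at 1.63-fold, 1.47-fold and 1.05-fold, and at 1.90-fold, 2.04-fold and 1.14-fold without the 2 deepest. These folds are of CPM and the clusters were made from the same genes, so they describe the clusters only.

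**Figure D5:**
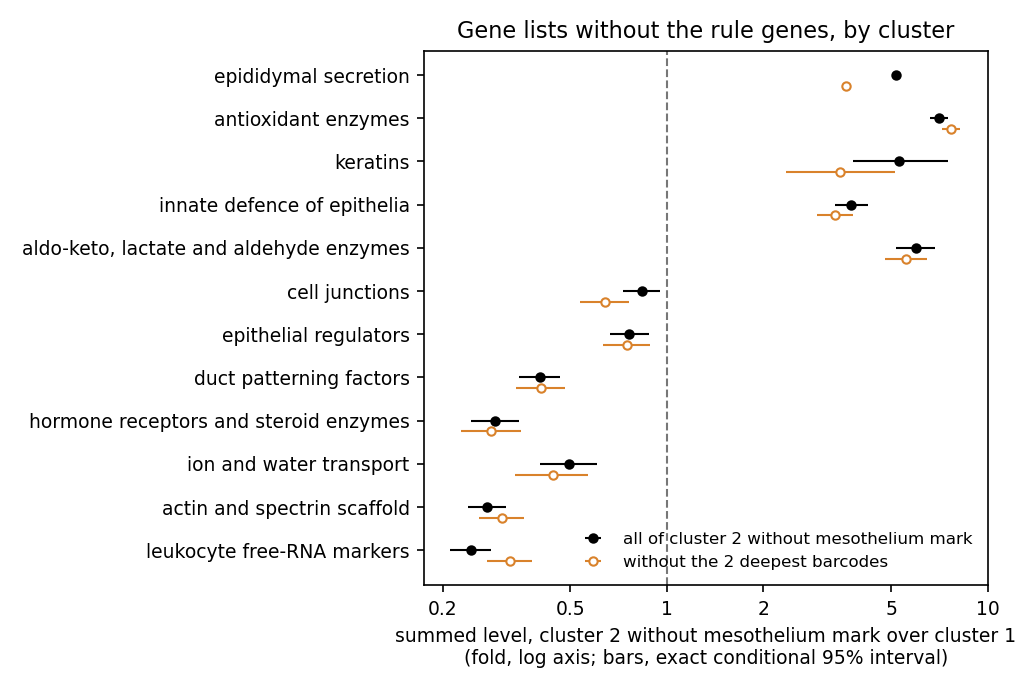
Summed level of 12 gene lists, selecting genes left out, in cluster 2 without mesothelial genes over cluster 1 (fold of CPM, log axis), with all 42 barcodes and without the 2 deepest, and exact conditional 95% intervals as bars. The plotted secretion, antioxidant, keratin, defence and enzyme lists lie above 1, and the other 7 plotted lie below.

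Besides Pax2, Pax8 and Grhl2, the genes with the largest CPM folds over leukocyte-gated barcodes came from a wide range of roles. Syn2, a synapsin gene, had 876 against 2.62 CPM in 161 barcodes, the transporter gene Abcb5 417 against 0.737 in 123, the potassium channel gene Kcna1 340 against 0.873 in 111 and the homeobox gene Hoxd4 337 against 1.04 in 123. Sim1, Arhgef38, Nav3, Arhgef28 and Limch1 stood at 139, 174, 145, 120 and 110 CPM in 60 to 72 barcodes each. Timp4, a metalloproteinase inhibitor gene, had 109 CPM in 43 barcodes, with 197 in cluster 1 and 3.08 in the 42 barcodes. Timp4 (chromosome 6, 115241892 to 115252205, minus strand) lies within Syn2 (115134902 to 115282006, plus strand), and Pate1 within the span of Pate2, so their counts are uncertain where the counting did not use strand, which is not given in the sources used here. Pate1, a small secreted protein gene of the Ly6 type, had 709 CPM in 54 barcodes with 75.3% of its UMIs in the deepest, and 200 CPM without the 2 deepest. Its relative Pate9, chosen after its values were seen, had 529 CPM in 110 barcodes, 924 in cluster 1 and 58.6 in the 42. The 5 named lower genes, Cd2, S1pr1, Arhgap30, Gpr183 and Padi4, had 1 UMI each in the epithelial barcodes and 116 to 249 CPM in the leukocyte-gated ones.

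The remaining 6 of the 20 named higher genes rested on few barcodes. Gas1, Upk3b, Rarres2, Igfbp6, Aebp1 and Dcn were each seen in 5 to 12 of the 218. A set of 4 barcodes, with 8345 to 15030 UMIs, carried at least 3 of 7 mesothelium genes, a threshold chosen after the values were seen, while 212 carried none. In those 4, Upk3b stood at 2491 CPM, Msln (mesothelin) at 1346, Rarres2 at 13924 and Dcn, a fibroblast proteoglycan gene, at 10026. Pax2 had 0 UMIs there, and the secretion list took 0.266% to 0.626% of their UMIs, with 40 to 72 UMIs per barcode. They passed the selection with genes such as Krt8, at 984 CPM, which mesothelium also expresses, and they stand apart from the label. Without them the secretion share was 6.96%.

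Markers of other tissues were also counted. Over all genes 14.4% were at least 4-fold higher per barcode, the share beside which the counts of higher genes here stand. Of 8 measured mesothelium genes all 8 were at least 4-fold higher per barcode, and of 4 measured fibroblast genes all 4, mostly through those 4 barcodes. Skin keratinocyte genes were higher in 5 of 6, urothelial genes in 3 of 3 and seminal vesicle and prostate genes in 3 of 3, at 135, 56.8 and 172 CPM in sum. Without the 4 barcodes with mesothelial genes the sums were 50.2, 33.5 and 183 CPM, and without the 2 deepest barcodes the last was 69.9 CPM. Both measured Sertoli genes, Clu and Sox9, were higher, and of 3 measured endothelial genes 1 was higher and 1 lower. Smooth muscle (3 measured), erythroid (4) and spermatid genes gave 0 genes at 4-fold per barcode. Leukocyte transcripts were present at low counts: Lyz2, the lysozyme gene of macrophages, had a median of 3 UMIs per epithelial barcode in cluster 1 and 678 in macrophage-gated ones. Of 10 leukocyte free-RNA genes all 10 were lower per barcode and in CPM, where 7.53% of all genes were lower in CPM. All 8 macrophage genes were lower per barcode too, but these include the exclusion genes Adgre1, Csf1r, Timd4 and Vsig4. For those genes the lower counts follow from the selection. Early stress genes were lower per barcode in 9 of 12 and higher in 0, and cell cycle genes lower in 4 of 8, where 22.1% of all genes were lower. In CPM the same lists had 2 stress genes higher and 2 lower, and 1 cell cycle gene lower and 0 higher.

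The same selection was applied to the other libraries. In the chimera cauda it found 1 of 184 barcodes (0.543%, 0.0138 to 2.99), with 1834 UMIs, and that barcode is not in the KO cauda list. Among the 63 chimera barcodes that are not in that list it is 1.59% (0.0402 to 8.53). It held 89 UMIs of Crisp1, 83 of Cd52, 31 of Gpx3, 29 of Wfdc15b, 22 of Defb28 and 19 of Spink8, a secretion share of 17.4% with 18.8% from ribosomal protein genes. Against the 218 KO barcodes, 499 of 2315 genes (21.6%) were at least 4-fold higher in that barcode, 466 of them on 1 to 3 UMIs, and 2 (0.0864%) lower, so single genes were not compared. The 8 named higher genes held 1 or 2 UMIs each in it, and Smcp, a sperm gene with 0 in the 218, had 2. With 1 library a group and 1 barcode, a difference between the animals cannot be told apart from sampling.

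In the KO testis 522 of 13662 barcodes (3.82%, 3.51 to 4.16) met the rule, and testicular genes were prominent among their RNA. Crisp1, Akr1c19, Defb28, Wfdc15b, Adam7 and Serpina1f had 0 UMIs there, which allows 0.347 CPM, while the Leydig hormone gene Insl3 stood at 1760 CPM, the steroid import gene Star at 406 and the Sertoli factor gene Sox9 at 244. Ptgds and Clu were higher there, at 8910 and 4970 CPM, than in the epithelial barcodes of the cauda, and Cst12, at 0 in the latter, reached 2348 CPM.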

How the data were processed

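Single-cell 3′ RNA was measured with Chromium v3.1 chemistry in 3 mouse libraries, 1 per group, grouped by title. The deposited matrices hold raw UMI counts for 26124 genes, as whole numbers with no normalization. Cell Ranger 6.1.2 stands in the headers of the KO files and Cell Ranger 4 in that of the chimera file, so software and condition cannot be told apart. GRCm38.p6, Seurat 4.2.1 and Cell Ranger 6 are named in the submitters' processing notes. Positions come from GENCODE M21, which holds 99.9% of the gene IDs.

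Counts were summed per class and given as CPM or as UMIs per barcode. Levels carry exact Poisson, shares exact (Clopper-Pearson) binomial and folds exact conditional binomial 95% intervals. They cover counting error only, since with 1 library per group there is no replicate spread and no test was run. A count of 0 allows up to 3 UMIs. Genes were compared at 4-fold with 100 CPM in the higher class, or at 4-fold with the interval beyond 1 and more than 3 UMIs. Barcodes were clustered with scanpy 1.11.5 (10000 UMIs per cell, 2000 variable genes, 20 components, 15 neighbours, Leiden resolution 0.5, seed 7). Doublets were scored against simulated ones, 2 per cell, and the highest 0.8% per 1000 cells were marked, 99 of 3525 barcodes (2.81%) in the KO cauda and 0 of the 218. The fold intervals were checked on simulated counts, and the sorting of barcodes into classes on a made matrix.

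The barcodes, the 29 gene lists and the alternatives were chosen with earlier results of these data known. Named genes were the 20 higher and 5 lower against leukocyte-gated barcodes, 8 each way against the chimera, the 6 with most UMIs in each list and the 10 leading each cluster, and others are said to be chosen afterwards or are members of a list. The nuclear-retained RNA list was not analysed here. Some listed genes are not reported here. Alternatives were other quality limits, rule thresholds, exclusion limits, scalings and clusterings. Those with the mesothelium-gene barcodes, the 2 deepest barcodes or shared leukocyte-gated barcodes left out, and UMIs per barcode in place of CPM, were added after seeing the data.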

Additional observations from a re-analysis of the deposited data

How the results depend on the processing

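The share of the 218 epithelial barcodes' UMIs that came from secretion genes, 6.57%, was 4.12% with a mitochondrial limit of 10%, 6.23% with 2 or more selecting genes, 3.78% with 0 UMIs of every exclusion gene, 6.97% without mitochondrially encoded genes in the total, 4.03% as the mean over barcodes, 6.96% without the 4 mesothelial-gene barcodes and 4.26% without the 2 deepest. The number of barcodes was 139 with 0 exclusion UMIs and 189 to 261 under the other limits. The 799 genes higher than in leukocyte-gated barcodes became 4488 with no CPM minimum (1079 lower against 326) and 344 in UMIs per barcode (779 lower), and lay between 748 and 1104 under the other alternatives. Against the single chimera barcode, the 2 genes higher in the KO cauda became 1 with a mitochondrial limit of 10%, with 0 exclusion UMIs or without the 2 deepest, 4 with 2 or more selecting genes (then 3 chimera barcodes) and 0 without mitochondrially encoded genes. At a resolution of 1.0 there were 6 clusters in place of 2, and with 10 components 3. The low ribosomal share, a median of 2.60%, was 2.55% in barcodes with at least 1000 UMIs. Crisp1 ranged from 11999 to 23929 CPM and Pax2 from 569 to 756 CPM over the alternatives. No paired analysis was possible because each group is 1 library. The causes of these shifts were not tested. Depth limits what a single barcode shows: thinned to 500 UMIs, 105 of 218 still met the 3-gene threshold.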
